A study of Mus musculus with 7 samples.

Results

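Immunity-related GTPases (IRG proteins) are large GTPases that cells make in response to interferon, and the 9 genes described here were the rows of the deposited tables named Irgm1, Irgm2, Igtp, Iigp1, Ifi47, Tgtp1, Tgtp2, Gm4841 and Gm4951, out of 50686 genes in each of 7 libraries. The members were chosen by gene name and not by a cut on their values, though with earlier results of these data known. All 9 were counted in each library and passed the filter on low values, which required more than 10 expected counts in 1 library or more and left 17559 genes in all.

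The libraries were made from microglia of C57BL/6 male mice, 4 of them young (3 to 4 months; mice 14C, 18C, 23C and 29C) and 3 of them old (21 to 22 months; mice 2posI, 3posI and 4posI). All 7 mice had a 45 min occlusion of the middle cerebral artery, and cells were sorted 4 days later as CD11b+ CD45low Bodipy+, so that both ages were represented by ischemic microglia that stained for neutral lipid, with no sham-operated mouse and no Bodipy-negative cell in the comparison. The labels name no drug treatment and no altered gene, and the methods describe isoflurane anesthesia and buprenorphine analgesia for the surgery. Each library came from 1 mouse, and the low RNA input was amplified with a custom, non-stranded SMARTseq2 protocol, for which no molecular identifiers were named. The comparison asks how ischemic microglia of old and young mice differ, and it cannot tell an age difference in the response to ischemia from one present before it.

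IRG proteins act inside the cell. The effector members, which carry the GKS form of the GTP-binding motif, load onto the membrane of a vacuole that holds a parasite or bacterium and break it. The regulatory members Irgm1, Irgm2 and Igtp (also called Irgm3), which carry the GMS form, sit on the membranes of the cell's own organelles, lipid droplets among them, and keep the effectors off. Interferon-γ is the strongest known inducer of the family, in part through the factor IRF1, and type I interferons induce it too.

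The bases just upstream of the transcription start are shown because they carry the elements through which interferon is known to act on this family, the interferon-stimulated response element (ISRE), to which IRF factors bind, and the gamma-activated site (GAS). RefSeq promoters on GRCm38.p6 were found for 6 of the 9 genes, all on chromosome 11. Bases -100 to -13 from the RefSeq start are given 5′ to 3′ on the strand of the gene, with capitals for an ISRE core (GAAA, any 2 bases, GAAA) or a GAS (TTC, any 3 bases, GAA), both searched on both strands.
Irgm1, chr11:48871433-48871520, minus: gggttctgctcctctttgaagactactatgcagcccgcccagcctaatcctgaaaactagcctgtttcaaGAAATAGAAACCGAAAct
Igtp, chr11:58199456-58199543, plus: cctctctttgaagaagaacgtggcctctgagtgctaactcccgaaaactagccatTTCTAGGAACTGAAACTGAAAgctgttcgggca
Irgm2, chr11:58214877-58214964, plus: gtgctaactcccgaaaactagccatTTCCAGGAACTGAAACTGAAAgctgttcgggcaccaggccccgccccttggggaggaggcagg
Tgtp1, chr11:48992259-48992346, minus: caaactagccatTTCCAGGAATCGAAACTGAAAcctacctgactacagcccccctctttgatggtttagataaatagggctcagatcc
Tgtp2, chr11:49064225-49064312, minus: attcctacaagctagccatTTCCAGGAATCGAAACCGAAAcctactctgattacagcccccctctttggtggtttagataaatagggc
Ifi47, chr11:49076487-49076574, plus: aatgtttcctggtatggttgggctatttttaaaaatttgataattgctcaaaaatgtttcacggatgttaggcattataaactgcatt

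Within 250 bases upstream of the start, 5 of the 6 genes held the ISRE core, against 2.98% of the 32851 promoter sequences in the table. Irgm1 held it at 2 overlapping places, beginning at -30 and -24. The GAS was found in 4 of the 6, Igtp, Irgm2, Tgtp1 and Tgtp2, against 7.02% of all promoters. In those 4 it stood before the ISRE core with the same spacing, the GAS being followed by any 2 bases and then by the core, with no overlap. This joint sequence was present in 5 promoters of the whole table, those of the 4 genes and that of Gm12185, another IRG-family locus. These promoters are not independent sequences. When aligned, 78.8% of the 250 bases were identical between Igtp and Irgm2, and 70.4% between Tgtp1 and Tgtp2. Gm12185 overlaps Tgtp1 by 6900 bases on the same minus strand, so its annotated start is at chr11:48992226. The 250 bases searched for Tgtp1 (chr11:48992247-48992496) lie just upstream of it. The joint site of Tgtp1 is therefore upstream of the annotated start of Gm12185 too, and the 2 are not separate promoters by these coordinates. Whether the match in the RefSeq promoter of Gm12185 is this same site was not tested. The joint sequence began at -88 in Tgtp1, -81 in Tgtp2, -75 in Irgm2 and -45 in Igtp. Neither motif was found in this window of Ifi47. Only this RefSeq start was searched, whereas 5 transcripts of Ifi47 were listed, so motifs at any other start or further upstream were not tested. The window shown for Irgm1 lies within an exon of a noncoding Irgm1 transcript of GENCODE vM21, whose start lies further upstream than that of RefSeq.

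The genes lie in 3 clusters of the GRCm38 genome. Irgm1 (chr11:48861968-48871683, minus strand), Tgtp1 (chr11:48985327-48994172, minus), Tgtp2 (chr11:49057194-49064206, minus) and Ifi47 (chr11:49076587-49096974, plus) form the first, over 235007 bases. Igtp (chr11:58199556-58207591, plus) and Irgm2 (chr11:58199618-58222782, plus) form the second, and their annotated spans overlap on the same strand by 7974 bases. Gm4951 (chr18:60212080-60247820, plus), Gm4841 (chr18:60268305-60273272, minus) and Iigp1 (chr18:60376027-60392634, plus) form the last. All 9 are annotated as protein-coding.

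Before the values, a few facts of the libraries bear on them. Total expected counts were 36574083 to 53002386. All 8 microglial markers were counted in each library, with a summed level of 17640 to 27760 CPM (counts scaled to library size with TMM factors) in young and 10310 to 22290 in old mice, the lowest being 3posI. Monocyte markers (Ccr2, Ly6c2, Plac8, Chil3) summed to 1906 CPM in old mouse 3posI, against 62.3 and 99.2 in the other old mice and 14.6 to 74.3 in young mice. Neutrophil markers (S100a8, S100a9, Ly6g, Retnlg) summed to 100.8 CPM in young mouse 29C, against 1.22 to 12.1 in the other young mice and 29.4 to 95.04 in old mice, with the defining marker Ly6g at 0 in 14C, 18C and 23C and at most 0.298 elsewhere. Dendritic cell markers summed to 3.96 to 6.86 CPM in young and 8.77 to 15.3 CPM in old mice, but the members went different ways. Cd209a was at 0.086 to 1.48 CPM in young and 4.49 to 6.85 CPM in old mice, and Flt3 was at 6.72 CPM in 3posI. Zbtb46 and Xcr1 had log2 fold changes of -0.81 and -0.48. Endothelial markers summed to 57.65 to 111.9 CPM in young and 45.4 to 57.6 CPM in old mice, so that the ranges all but met, and Flt1 overlapped between ages. Border macrophage markers summed to 432 CPM in 3posI against 38.1 to 179 CPM elsewhere. Most of this was Pf4 (315 CPM), whereas Mrc1 and Cd163 were highest in 2posI. T and NK cell markers stayed at or below 11.9 CPM, a sum that was mostly Cd4 in 23C and 2posI (10.2 and 10.25 CPM). Cd3e was at 0.562 CPM in 3posI, 0.453 CPM in 4posI and at most 0.0196 CPM elsewhere. Cd8a was at 0.26 to 0.52 CPM in old and at most 0.0196 CPM in young mice. The part of these other cells in the levels below was not tested. Values without a library leave out a whole mouse, so they do not test it either.

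In the comparison of old and young mice, the quasi-likelihood test of edgeR, with p-values adjusted by Benjamini-Hochberg over all genes, called 0.803% of the 17559 genes tested at a threshold of 0.05 (0.57% of all genes as higher and 0.233% as lower with age). Of the 9 IRG genes, 0 were called. Ifi47 alone had an unadjusted p under 0.05, which 10.1% of all genes had upwards and 8.79% downwards. limma-voom, which called 0.558% of all genes as higher, called 0 of the 9, and DESeq2, which called 5.07% of the genes it gave an adjusted p as higher, called 1, again Ifi47. The fitted log2 fold change was above 0 for all 9, against 48.8% of all genes, with a median of 0.72 against -0.01 over all genes tested. With 1 library left out, 0 of the 9 were called, where the share of genes called as higher was 0.00575% without 2posI or 18C, 0.00576% without 14C, 0.0579% without 23C, 0.0115% without 29C, 0.248% without 4posI and 0.668% without 3posI. No member had every old library above every young one, a separation seen in 8.67% of all genes. These genes share libraries and an inducer, so their directions are not 9 separate observations. In bulk RNA, fewer cells of a type and less RNA per cell cannot be told apart.

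**Figure D1:**
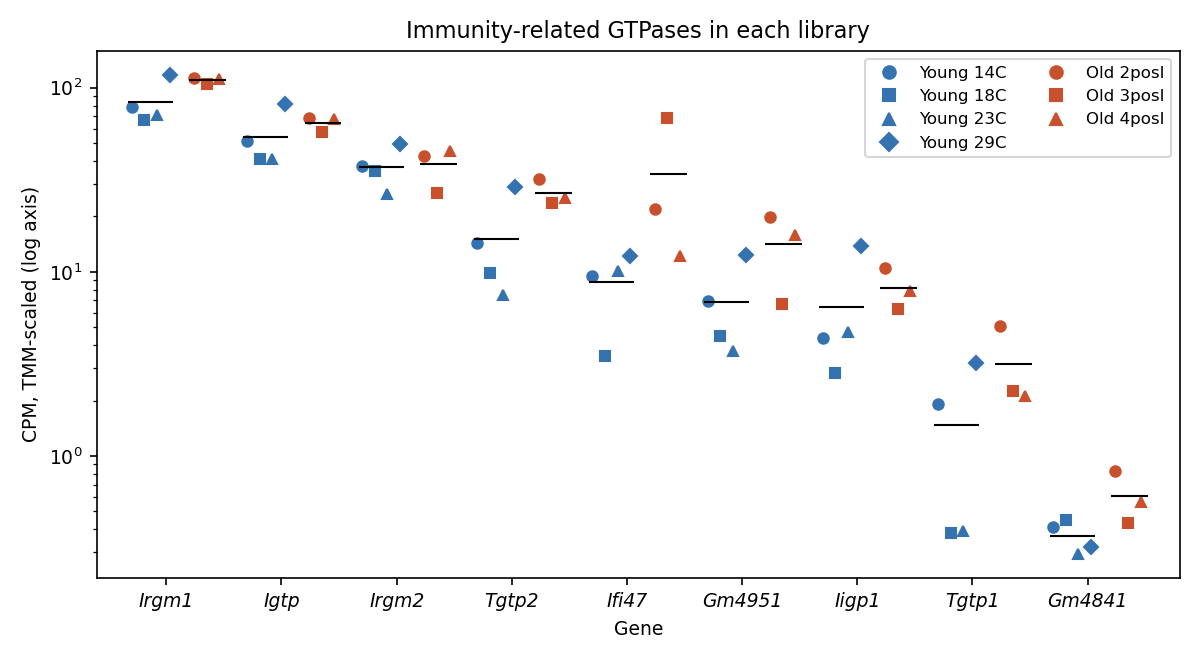
Level of each IRG gene in CPM scaled by TMM factors, on a log axis, in the 4 young (blue) and 3 old (orange) libraries, with black lines at the group means. Young mouse 29C (diamond) sits with the old mice for most genes, and old mouse 3posI (orange square) stands far above the rest for Ifi47 only.

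On the TPM scale, which corrects for transcript length and so allows genes to be compared, Irgm1 was the most abundant member in all 7 libraries and Gm4841 the least abundant. Igtp ranked 2 in 6 libraries and 3 in old mouse 3posI, where Ifi47 ranked 2. In young mice the TPM averaged 54.1 ± 12.7 (SD, n = 4) for Irgm1, 37.9 ± 11.7 for Igtp, 14.9 ± 3.27 for Irgm2, 11.7 ± 6.79 for Tgtp2 and 7.24 ± 2.77 for Ifi47. Gm4951 (3.61 ± 1.88), Iigp1 (2.89 ± 2.12) and Tgtp1 (1.64 ± 1.32) formed a lower tier whose values overlapped, as did those of Irgm2 and Tgtp2, and Gm4841 was at 0.185 ± 0.041. The regulators thus held the top 3 mean TPM levels in young mice, and the mean of each effector stood below them.

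In old mice the TPM averaged 67.5 ± 6.44 (SD, n = 3) for Irgm1 and 43.6 ± 6.23 for Igtp. Ifi47 came next at 25.9 ± 22.5, an average set by 1 library, followed by Tgtp2 at 18.9 ± 2.59 and Irgm2 at 14.7 ± 4.53, whose ranges overlapped. Gm4951 was at 7.11 ± 3.33, Tgtp1 at 4.47 ± 2.17, Iigp1 at 3.51 ± 0.729 and Gm4841 at 0.283 ± 0.09. The summed TPM of the family was 131, 106, 108 and 192 in young mice 14C, 18C, 23C and 29C and 182, 188 and 189 in old mice 2posI, 3posI and 4posI. The young libraries 14C, 18C and 23C were therefore below all old libraries in this sum, and 29C was above all of them.

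**Figure D2:**
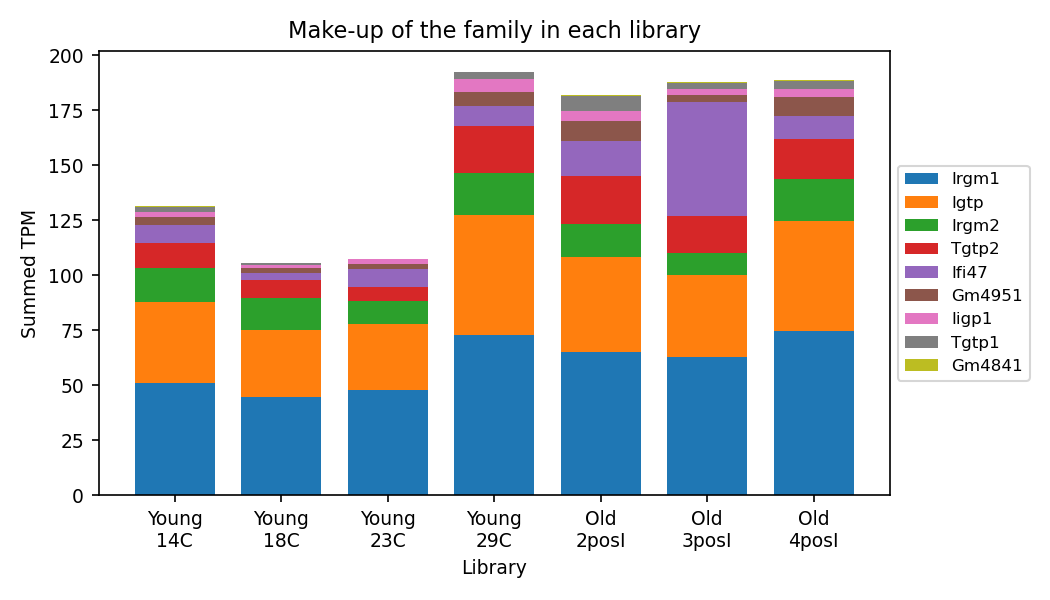
Summed TPM of the 9 IRG genes in each library, with the part of each gene as a stacked bar. Irgm1 and Igtp make up the greater part of each bar, and Ifi47 takes 27.6% of the sum in old mouse 3posI against 3.00% to 8.66% in the other libraries.

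Irgm1, the regulator on Golgi and lysosomal membranes, is the member whose reads were divided with no other gene, since its expected counts were whole numbers, within a tolerance of 0.001 that holds for all counts called whole here, in 7 of 7 libraries. It was at 78.2, 66.45, 71.5 and 117.7 CPM in young mice 14C, 18C, 23C and 29C, and at 113.2, 104.3 and 111.8 CPM in old mice 2posI, 3posI and 4posI. The 3 old mice lay close together and above 3 of the 4 young mice, whereas 29C was above all of them. The means were 83.5 ± 23.3 in young and 109.8 ± 4.82 in old mice, and the fitted difference of 0.40 on the log2 scale (SE 0.20, 95% interval -0.05 to 0.84) did not pass the test (adjusted p = 0.316, edgeR). Leaving out 29C gave 0.61 (adjusted p = 0.112), and the lowest value with 1 library left out was 0.31, without 18C.

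Igtp, the regulator found on the endoplasmic reticulum and on lipid droplets, was at 51.2, 40.9, 41.0 and 81.9 CPM in young mice in the same order. In old mice it was at 68.9, 57.3 and 67.6 CPM. The arrangement was that of Irgm1, with 29C above every other library and the 3 old mice above the other young mice. The log2 fold change was 0.27 (SE 0.24, 95% interval -0.29 to 0.82; adjusted p = 0.587, edgeR), and it was 0.54 without 29C (adjusted p = 0.171) but 0.16 without either 18C or 23C.

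Irgm2, a regulator of the Golgi membrane, was at 37.4, 35.3, 26.3 and 49.4 CPM in young and at 42.7, 26.8 and 45.45 CPM in old mice. Old mouse 3posI was close to the lowest young mouse, so that the ages were interleaved. The log2 fold change was 0.05 (SE 0.24, 95% interval -0.51 to 0.60; adjusted p = 0.937, edgeR), and its sign was not stable, since the difference in log2 TPM was -0.05. Irgm2 and Igtp share 243 of their 50-base windows, 6.79% of those of Irgm2 and 11.8% of those of Igtp, and neither had a whole expected count in any library, which means that RSEM divided reads among genes for both. Irgm2 was the member whose log2 fold change was nearest to 0, and its interval still includes differences of either sign.

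Among the effectors, Ifi47 (also called Irgd or IRG-47) had the highest fitted log2 fold change over all 7 libraries, a rank it did not hold without 3posI or on the TPM scale, where Tgtp1 had 1.79 against 1.59 for Ifi47. It was at 9.55, 3.49, 10.1 and 12.2 CPM in young mice 14C, 18C, 23C and 29C, and at 22.0, 68.4 and 12.1 CPM in old mice 2posI, 3posI and 4posI. Of the old mice, 2posI and 3posI were above every young mouse, 4posI was within the young range, and 3posI had an expected count of 2678 against 562 and 739 in the other old mice and 156 to 569 in young mice. The means were 8.85 ± 3.76 in young and 34.2 ± 30.1 in old mice, so the spread among old mice was nearly as large as their mean.

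The log2 fold change of Ifi47 was 1.95 (SE 0.59, 95% interval 0.61 to 3.29), with an unadjusted p of 0.00959 and an adjusted p of 0.141 in edgeR's test across all genes. DESeq2 gave 1.96 with an adjusted p of 0.00956, and the adjusted p ranged from 0.00956 to 0.213 over 10 alternative settings and from 0.081 to 0.301 when 1 library was left out. Without 3posI, the library with the high monocyte markers, the log2 fold change was 0.95 (adjusted p = 0.301, edgeR). In 3posI the other 8 IRG genes were not high among old mice, and 7 of the 9 had their lowest old value there. Olfr56, whose annotated span covers the whole of Ifi47 on the same strand, had an expected count of 35.4 in 3posI and 7.12 to 18.0 in the other libraries.

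Tgtp1 and Tgtp2 encode the effector Irgb6 in near-identical copies. Their transcripts Tgtp1-201 and Tgtp2-201 (GENCODE vM21) have the same base at 2804 of 2810 aligned positions, and 4 of the 6 differences are in the coding sequence. The most divergent 50 bases of the coding sequence are shown because, at the length of a read, they hold 2 of the 4 coding differences, which are in capitals. Positions are counted from the 5′ end of each transcript.
Tgtp1-201, bases 980 to 1029: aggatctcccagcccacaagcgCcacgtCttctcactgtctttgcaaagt
Tgtp2-201, bases 967 to 1016: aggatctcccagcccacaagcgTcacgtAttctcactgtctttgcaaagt

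Counted from the 5′ end of Tgtp1-201, these differences are C1002T and C1008A, with the Tgtp1 base first. Of the 50-base windows of all listed Tgtp2 transcripts, 85.8% occur in Tgtp1 too, and 79.4% of those of Tgtp1 occur in Tgtp2. The share of the summed expected count given to Tgtp1 varied from 3.73% to 13.7% between libraries, and its effective length varied from 645 to 2774 bases. The levels of each copy are therefore uncertain, and the sum is the firmer measurement.

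The sum of Tgtp1 and Tgtp2 was at 16.2, 10.3, 7.90 and 32 CPM in young mice 14C, 18C, 23C and 29C and at 37.1, 25.8 and 27.2 CPM in old mice 2posI, 3posI and 4posI. Here too 29C was in the range of the old mice, and the other young mice were below it. The means were 16.6 ± 10.9 and 30.0 ± 6.18, and the fitted log2 difference of the sum was 0.86 (SE 0.43; adjusted p = 0.322, edgeR). Leaving out 29C gave 1.39, which was the highest of the 7 values with 1 library left out, and 0.62 without 23C, the lowest. None of these passed the threshold.

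Taken singly, Tgtp2 averaged 15.1 ± 9.55 CPM in young and 26.9 ± 4.52 CPM in old mice (log2 fold change 0.83, SE 0.41, adjusted p = 0.315, edgeR), and the log2 fold change was 1.35 without 29C and 0.61 without 23C. Tgtp1 averaged 1.47 ± 1.35 and 3.15 ± 1.68 CPM, from expected counts of 17.1 to 171, and the fitted log2 difference was 1.10 (SE 0.75; adjusted p = 0.456), with 0.57 without 2posI, 1.82 without 29C and a log2 TPM difference of 1.79. Tgtp1 was at 0.38 and 0.392 CPM in 18C and 23C, and between 1.91 and 5.10 CPM in the other 5 libraries, old and young.

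Iigp1 encodes Irga6, the best-studied effector, which coats the vacuole of Toxoplasma. It was at 4.37, 2.82, 4.73 and 13.8 CPM in young and at 10.5, 6.31 and 7.84 CPM in old mice. Young mouse 29C had the highest value of all, and the other young mice were below each old mouse. The log2 fold change was 0.35 (SE 0.50, 95% interval -0.78 to 1.49; adjusted p = 0.744, edgeR) and depended on single libraries. It was 1.04 with 29C left out (adjusted p = 0.181), 0.11 with 18C left out and 0.14 with 2posI left out, and leaving out 14C gave 0.22 and 23C gave 0.23.

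Gm4951 and Gm4841 are interferon-inducible GTPase genes next to Iigp1. Gm4951 was at 6.91, 4.50, 3.73 and 12.3 CPM in young and at 19.8, 6.70 and 15.9 CPM in old mice, with 2 old mice above every young mouse and 3posI within the young range. Its log2 fold change was 1.04 (SE 0.47, 95% interval -0.03 to 2.11; adjusted p = 0.276, edgeR), with values from 0.72 without 2posI (adjusted p = 0.540) to 1.48 without 29C (adjusted p = 0.183) and 1.38 without 3posI when 1 library was left out. Gm4841 was near the limit of counting, with 15.2 to 28.0 expected counts a library and 0.294 to 0.834 CPM. Its fitted log2 difference, 0.72 (SE 0.46; adjusted p = 0.425, edgeR), was not distinguishable from 0, and it was 0.43 without 2posI. On the log2 TPM scale the difference was 0.41, but 0.1 was added to each TPM first, which lowers it for a gene at 0.15 to 0.37 TPM. The ratio of its mean TPM, old to young, was 1.53. Gm4841 also had 2 old mice above all young mice, and it was the only member whose highest young library was not 29C.

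**Figure D3:**
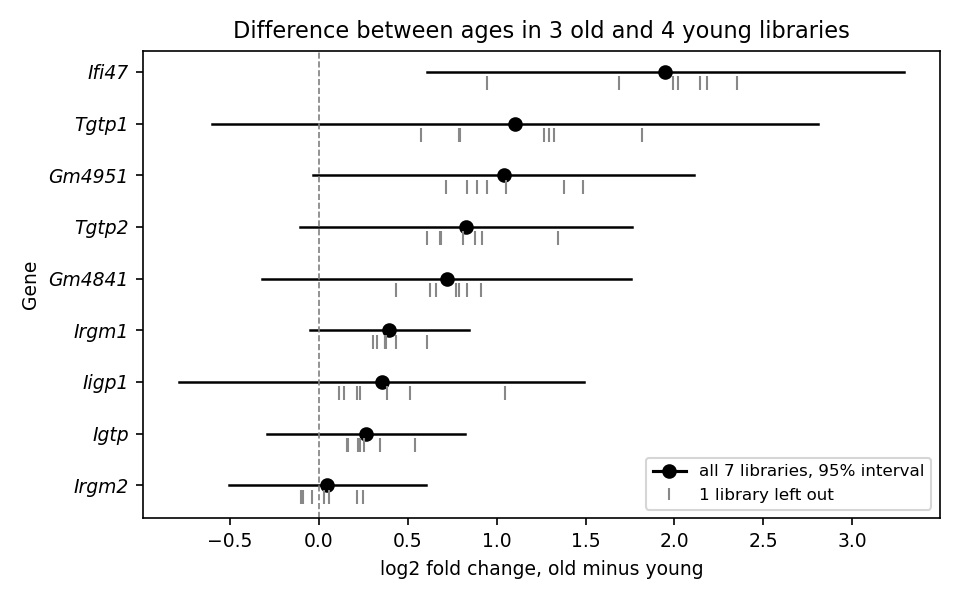
Log2 fold change of each IRG gene, old minus young, with its 95% interval from edgeR's test (black), and the values with 1 library left out (grey ticks). All 9 points are above 0, only the interval of Ifi47 excludes 0, and its lowest tick, 0.95, is the value without old mouse 3posI.

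Across libraries most members rose and fell together, while Ifi47, Gm4841 and Irgm2 followed the others less closely. Young mouse 29C had the highest young value of 8 genes, and the lowest young value fell in 18C for 5 genes and in 23C for 4. Among old mice 2posI had the highest value of 7 genes and 3posI the lowest of 7. The summed level was 320 CPM in 29C, against 164 to 204 CPM in the other young mice and 288 to 315 CPM in old mice. Of the pairs of genes, Irgm1 and Tgtp2 had the closest profiles of log2 CPM over the 7 libraries (Pearson r = 0.96), with Irgm1 and Igtp next (r = 0.96). The least alike were Irgm2 and Ifi47 (r = -0.26). With the other members, Ifi47 reached at most r = 0.63 (Irgm1), Gm4841 0.69 (Gm4951) and Irgm2 0.78 (Gm4951). These are descriptions over 7 libraries that share depth and composition, with both ages pooled.

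**Figure D4:**
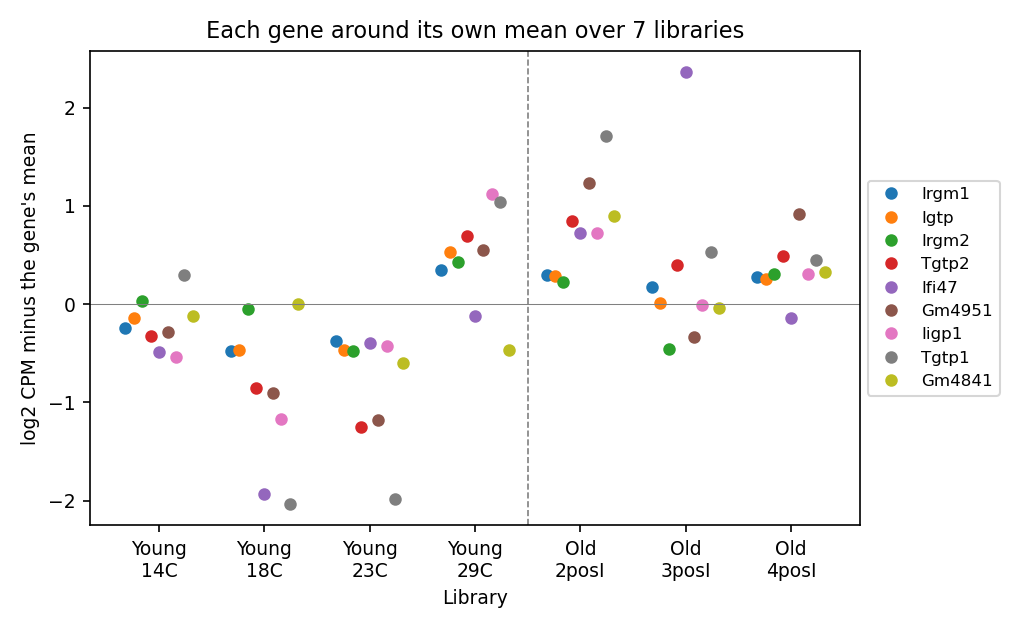
Log2 CPM of each IRG gene minus its own mean over the 7 libraries, with young mice left and old mice right of the dashed line. Most genes are below 0 in 18C and 23C and above 0 in 29C and 2posI, and Ifi47 departs from the others in 3posI.

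The genes outside the family whose profile was most like the mean standardised log2 CPM of the 9, among 9584 genes with a mean of at least 5 CPM, were Il18 (r = 0.98), a cytokine of the inflammasome, Xaf1 (r = 0.97), an interferon-induced binder of XIAP, and Phf11b (r = 0.96), an interferon-induced PHD finger gene. Next came Ccm2 (r = 0.96), a scaffold protein, Gm12250 (r = 0.96), the IRG locus known as Irgb10, Herc6 (r = 0.95), a ligase for ISG15, Pex16 (r = 0.95), a peroxisome biogenesis factor, and Ppm1b (r = 0.95), a protein phosphatase. Irf1, a factor through which interferon-γ induces the family, had r = -0.57. These genes were chosen for their likeness among 9584 over 7 libraries, so the r values are a description.

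Of 8 other IRG-family loci, 3 had a log2 fold change above 0, the median was -0.03 and 0 were called (edgeR). At an unadjusted p under 0.05, 1 was higher and 1 lower, where 10.1% of all genes were higher and 8.79% lower. limma-voom and DESeq2 called 0. Gm12250 was at 9.74, 7.05, 7.04 and 14.0 CPM in young and 16.7, 14.7 and 12.4 CPM in old mice (log2 fold change 0.62, SE 0.26, adjusted p = 0.247). Within the span of the first cluster lie Gm5431, 9930111J21Rik1, 9930111J21Rik2 and Gm12185. Their log2 fold changes were -0.05, -0.39, -0.04 and 0.48 (adjusted p = 0.927, 0.330, 0.952 and 0.634, edgeR). Their mean levels in young mice were 33.9, 44.7, 55.9 and 1.28 CPM, and none had a whole expected count in any library. Irgq, an IRG-related gene, had every old value (5.24, 7.999 and 7.62 CPM) below every young value (8.45 to 12.04 CPM), for a fitted log2 difference of -0.55 (SE 0.21; adjusted p = 0.217, edgeR), where 9.07% of all genes had such a separation downwards.

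Upstream of the family, the ligand Ifng was at 0 counts in all 7 libraries. These hold sorted CD11b+ CD45low cells, so Ifng made by other cells was not measured. Ifnb1, a type I interferon ligand, was at 12 to 75 counts a library (log2 fold change 0.88, SE 0.62, adjusted p = 0.476, edgeR). The receptor chains for interferon-γ did not pass the test, with Ifngr1 at 397 ± 117 CPM in young and 374 ± 65.7 CPM in old mice (log2 fold change -0.09, adjusted p = 0.879, edgeR) and Ifngr2 at 230.5 ± 14.0 and 220.1 ± 1.40 CPM (-0.07, adjusted p = 0.783). The chains of the type I interferon receptor, Ifnar1 (-0.19, adjusted p = 0.645, from -0.49 without 3posI to -0.02 without 2posI) and Ifnar2 (-0.02, adjusted p = 0.926), did not pass it either.

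Irf1 did not follow the order of the IRG genes, with 84.8 to 108 CPM in young mice, 102.9 CPM in 4posI and 55.4 and 57.1 CPM in 2posI and 3posI (log2 fold change -0.43, SE 0.22, adjusted p = 0.337, edgeR), and its value was -0.79 without 4posI (adjusted p = 0.063), -0.28 without 2posI and -0.29 without 3posI. The kinases nearest to the threshold went opposite ways. Jak2, which serves the interferon-γ receptor, was at 13.2 to 17.4 CPM in young and 21.6 to 31.7 CPM in old mice (0.79, SE 0.18, adjusted p = 0.080). Tyk2, which serves the type I receptor, was at 53.1 to 60.5 CPM in young and 28.0 to 39.6 CPM in old mice (-0.71, SE 0.14, adjusted p = 0.059, edgeR), although it had whole expected counts in only 1 library. For both kinases the ages did not overlap, a separation that 8.67% of all genes had upwards and 9.07% downwards.

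Of the 15 tested genes in this list of interferon ligands, receptors and signal transducers (16 listed), 0 were called by edgeR or limma-voom and 2 by DESeq2, Jak2 and Tyk2. At an unadjusted p under 0.05, 1 was higher and 1 lower in old mice, where 10.1% of all genes were higher and 8.79% lower. Every old library was above every young one for 2 of the 15 and below for 1. Their median log2 fold change was -0.02, close to that of all genes.

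The guanylate-binding proteins, another family of interferon-induced GTPases that works with the IRG proteins at vacuoles, had a median log2 fold change of 0.48, with 7 of 9 tested genes above 0 and 0 called by edgeR, limma-voom or DESeq2. At an unadjusted p under 0.05, 3 of the 9 were higher, where 10.1% of all genes were. Gbp7 was at 34.6, 29.5, 15.1 and 33.55 CPM in young and 62.2, 42.2 and 40.0 CPM in old mice, a separation of the ages (0.77, SE 0.29, adjusted p = 0.197, edgeR). Such a separation upwards was seen in 8.67% of all genes. Gbp4 was at 2.06, 2.24, 2.31 and 3.76 CPM in young and 5.57, 3.45 and 4.77 CPM in old mice (0.83, SE 0.30, adjusted p = 0.187), with 29C once more the highest young library.

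The ATG8 conjugation machinery, which helps to bring IRG and guanylate-binding proteins to vacuoles, had a median of 0.04 over 12 genes, 7 of them above 0 and 0 called (edgeR and limma-voom). At an unadjusted p under 0.05, 1 was higher and 1 lower, where 10.1% of all genes were higher and 8.79% lower. DESeq2 called 1. Atg16l1, which directs the conjugation, was at 30.0 to 33.3 CPM in young and 17.4, 24.1 and 23.0 CPM in old mice (-0.53, SE 0.14, adjusted p = 0.116, edgeR). Atg5, its partner, was at 49.3 to 58.0 CPM in young and 68.2, 70.0 and 55.5 CPM in old mice (0.29, SE 0.12, adjusted p = 0.246).

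The last list held 5 other interferon-induced proteins linked to lipid droplets, the organelle by which these cells were sorted and to which Igtp can localise. All 5 had a log2 fold change above 0, with a median of 0.93. The paper names these 5 among the genes raised by ischemia in microglia of young mice. It also reports Isg15 and Rnf213 as higher in old than in young ischemic female mice, so the list was not free of known direction. edgeR and limma-voom called 0. At an unadjusted p under 0.05, 4 were higher, where 10.1% of all genes were. DESeq2 called 2, where it called 5.07% of the genes it gave an adjusted p as higher. Rnf213, a ligase that coats lipid droplets, was at 40.8 to 104 CPM in young and 145 to 184 CPM in old mice with no overlap (1.36, SE 0.30, adjusted p = 0.074, edgeR), where 8.67% of all genes separated upwards. Rsad2, which encodes viperin, was at 36.3, 21.9, 43.5 and 64.3 CPM in young and 60.3, 157 and 76.1 CPM in old mice (1.24, SE 0.40, adjusted p = 0.163), with 3posI the highest library, as for Ifi47, and a value of 0.72 without it (adjusted p = 0.319).

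**Figure D5:**
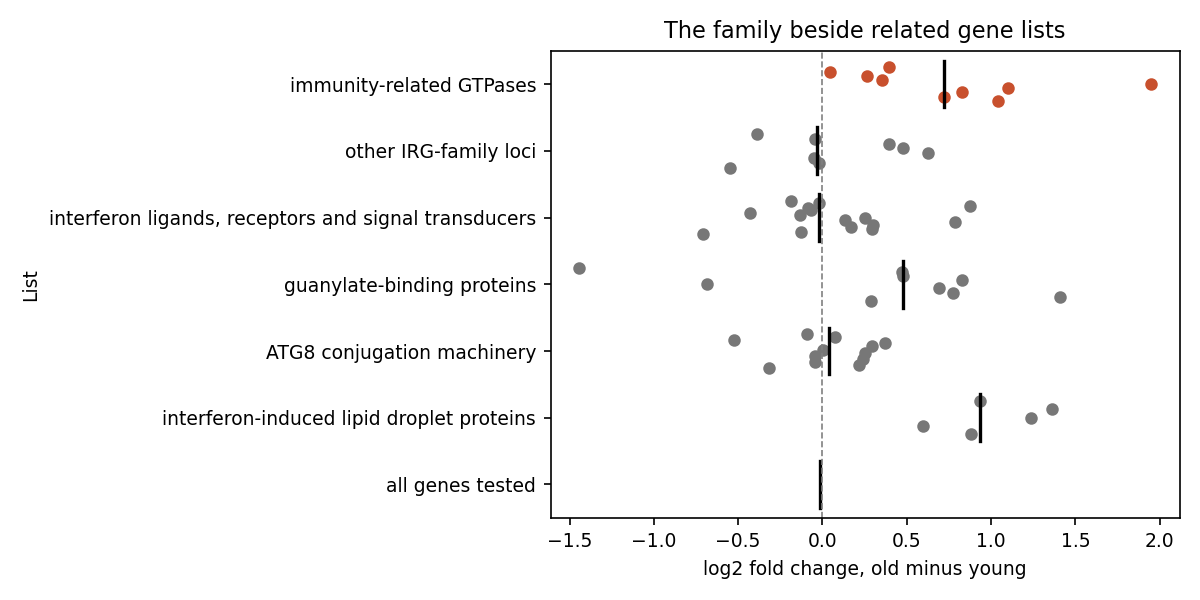
Log2 fold change, old minus young, of each of the 9 IRG members (orange) and of each tested gene in 5 related lists (grey). Black bars are at the medians, and the median of all genes tested is at the bottom. The 9 members have a median of 0.72, between the guanylate-binding proteins at 0.48 and the lipid droplet proteins at 0.93. The other 3 lists have medians near 0, and the 8 other IRG-family loci, at -0.03, are among them.

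The nearest protein-coding genes on either side of each cluster were read as neighbours that are not IRG genes. Trim7, beside Irgm1, was at 2.18 ± 0.386 CPM in young and 1.98 ± 0.395 CPM in old mice (log2 fold change -0.14, adjusted p = 0.826, edgeR). Smim3, beside Iigp1, had a log2 fold change of -0.04 (adjusted p = 0.920), and Mrpl22, a mitochondrial ribosomal protein gene beside Igtp, had 0.37 (adjusted p = 0.192) with every old library above every young one, as in 8.67% of all genes. Olfr1396, 4930438A08Rik and Chsy3, on the other sides, had at most 11 counts in any library.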

How the data were processed

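RNA from sorted Bodipy+ microglia of 4 young and 3 old mice was sequenced, 1 mouse a library, and samples were grouped by the age label. Reads were trimmed with skewer 0.2.2 after FastQC 0.11.5, mapped to GRCm38 with STAR and quantified with RSEM on GENCODE m15. For these last tools, the version is not given in the sources used. The authors deposited RSEM expected counts, which are not normalized and divide reads that match several genes, with TPM and FPKM values scaled within each library. The deposited TPM served to compare genes and as 1 alternative, and the deposited FPKM was not used. For differences in log2 TPM, 0.1 was added to each TPM. The labels name PureLink for RNA extraction and the methods PicoPure.

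Expected counts were rounded, genes needed more than 10 in at least 1 library, and X, Y and mitochondrial genes were left out. edgeR 4.0.16 (R 4.3.3) gave TMM factors, CPM and the quasi-likelihood test with age as the only term, and p-values were adjusted over 17559 genes with a threshold of 0.05. limma 3.58.1, DESeq2 1.42.0, RLE and upper-quartile factors, other filters, an effective-length offset and each library left out were alternatives. Coordinates and 50-base windows came from GENCODE vM21, in which 224 of 50686 identifiers were missing, and transcripts were aligned with Biopython 1.88. Total expected counts of 36574083 to 53002386 limit precision at low levels, and counting intervals would not cover PCR copies. No batch was given in the labels.

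The members and lists were chosen with earlier results of these data known. Besides the 9 members, the genes named were the 2 of smallest p in each list, fixed interferon signalling genes, the 8 of most similar profile and the neighbours of each cluster. The other IRG-family loci within the first cluster and Ifnb1 were named as well. One interferon signalling gene of the rule is not reported here.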

Additional observations from a re-analysis of the deposited data

Results flagged for a closer look

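Gbp4, a guanylate-binding protein, was at 3.76 CPM in young mouse 29C and at 2.06 to 2.31 CPM in the other 3 young mice, so that the gap of 29C to its nearest neighbour was 0.849 of the range of the group, above the 95% critical value of Dixon's test for 4 samples. It was the only one of 26 groups of young libraries tested in this way that passed, where chance gives about 1.3. The same library had the highest young value of 8 of the 9 IRG genes, none of which passed the criterion.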

How the results depend on the processing

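No paired analysis was possible because each library is a different mouse and the labels give no number shared between ages. The count of IRG genes called was 0 under all alternatives and with each library left out, except DESeq2, which called 1, and it was also 0 at an adjusted p under 0.1. Irgm2 had a log2 fold change of -0.10 to 0.25 with 1 library left out and a log2 TPM difference of -0.0497, and the cause was not tested. The other 8 were above 0 under every setting run. The count over all genes, 141, was 318 with quality weights in limma-voom, 1403 in DESeq2, 213 with the effective-length offset, 288 with no filter and 1 to 159 with 1 library left out (1 without 2posI, 14C or 18C, 2 without 29C, 14 without 23C, 85 without 4posI, 159 without 3posI). The count over the related lists, 0, was 1 with quality weights (Tyk2), 5 in DESeq2, 1 with the offset (Rnf213), 2 with no filter and 0 to 1 with 1 library left out (Tyk2, without 3posI). Ifnar2 turned to 0.0113 with quality weights and ranged from -0.04745 to 0.0103, and Ifngr1 from -0.264 to 0.0780, with 1 library left out. Gm4841, with 15.2 to 28.0 expected counts a library, and Tgtp1, with 17.1 to 171, had the fewest counts of the family.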
